A study of Mus musculus with 18 samples.

Results

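The circadian clock of the liver was examined through 10 of its genes, Per1, Per2, Per3, Cry1, Arntl, Nr1d1, Nr1d2, Dbp, Tef and Ciart, taken from the liver count table by their symbols. All 10 were among the 55291 genes listed there. The study measured RNA in liver and pancreas of mice with a knock-out of Otub2, a deubiquitinase of the OTU family, and of their wild-type counterparts. Liver gave 7 libraries, 5 from heterozygous mice (OTUB2 +/-, called HET) and 2 from wild-type mice (OTUB2 +/+, called WT). Pancreas gave 3 homozygous (OTUB2 -/-, called HOM), 5 HET and 3 WT libraries. Strain, age, the deleted part of the gene, the sex of the liver donors, feeding, lighting and the hour of collection are not stated in the labels, which also leave unsaid whether each library came from a separate animal, so that p-values measure the spread between libraries.

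The clock is a feedback loop of transcription. ARNTL (also called BMAL1) and its partner CLOCK switch on the Per and Cry genes, whose proteins return to block them, and also Nr1d1 and Nr1d2, which encode the REV-ERB nuclear receptors that repress Arntl. Dbp and Tef encode activators of the PAR bZIP family that carry the rhythm to output genes, and Ciart encodes a further repressor of ARNTL. In the liver of mice kept in light and dark, Nr1d1 transcripts peak in the light phase ahead of Dbp, the Per transcripts follow around dusk, and Arntl peaks near the end of the dark phase. The levels of these genes against each other therefore carry the phase at which a liver was taken, and the question here was whether they were alike among the 7 livers and between genotypes.

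The liver libraries held 264660 to 1686234 counts in HET and 155201 and 342609 in WT. All 10 hepatocyte markers examined, albumin (Alb) and transthyretin (Ttr) among them, were counted and summed to 116274 to 128998 CPM (counts per 1000000 of the library's total) in HET and 130032 and 141513 in WT. Otub2 itself had 0 to 2 counts per HET liver, and 1 and 0 in WT, which checks nothing about the labels, since the libraries read the 3′ ends of transcripts. Single libraries stood apart in other genes. HET 5, the deepest, had 0 counts of the predicted gene Gm10800 (854 to 1944 CPM in the other 6) and 1325 CPM of the 12 immediate early genes examined (202 to 464 in the other 6). HET 2 and HET 3 had 4326 and 8821 CPM of the acute-phase gene Saa1 (77.1 to 703 in the other 5). WT 2 had 1635 CPM of the nuclear RNA Malat1 (140 to 367 in the other 6). The part of these differences in the clock values was not tested. Fewer cells of a type and less RNA per cell cannot be told apart in bulk tissue.

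Promoter sequence was at hand for 9 of the 10 genes (all but Per2), as RefSeq windows of build GRCm38.p6 from 250 bases before to 50 bases after each start. They were searched on both strands for the E-box CACGTG to which ARNTL and CLOCK bind, its variant CACGTT, the D-box bound by DBP and TEF (TTATGTAA or TTACGTAA) and, by name, the ROR/REV-ERB element through which the Nr1d receptors repress Arntl. E-boxes were in the first of the Per1 windows, the Cry1 window, both Tef windows and the Ciart window, which held 3, against 7.15% of all 32851 promoter windows. The variant was in the windows of Cry1 and Nr1d1 (4.68% of all). The D-box occurred 2 times in the Per3 window (1.06% of all), and the ROR/REV-ERB element once, in the second Arntl window just past the start (0.773% of all). The second Per1 window, the first Arntl window and the Dbp and Nr1d2 windows held none of these letters. The 250 bases before the start are shown for Nr1d1, Dbp, Per3 and Ciart. Nr1d1 had the widest range between livers of the 6 clock genes with a mean of at least 10 CPM. Dbp is set against it within each library, and Per3 and Ciart held repeated motifs. For Arntl the 30 bases around its match are shown. Motif matches are in capitals, 5′ to 3′ on the strand of the gene. A match is a description of the letters and not of binding.
Nr1d1, chr11:98775378-98775627, minus strand: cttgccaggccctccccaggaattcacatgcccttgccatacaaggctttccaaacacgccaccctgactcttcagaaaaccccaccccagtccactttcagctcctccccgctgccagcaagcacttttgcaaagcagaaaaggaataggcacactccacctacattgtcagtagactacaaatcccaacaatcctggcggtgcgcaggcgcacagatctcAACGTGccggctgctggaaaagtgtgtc
Dbp, chr7:45704997-45705246, plus strand: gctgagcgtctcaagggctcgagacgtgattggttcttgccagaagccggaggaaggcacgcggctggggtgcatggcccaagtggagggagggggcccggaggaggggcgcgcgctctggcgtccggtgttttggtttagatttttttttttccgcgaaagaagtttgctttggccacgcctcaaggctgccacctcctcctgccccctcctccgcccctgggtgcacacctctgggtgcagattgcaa
Per3, chr4:151044666-151044915, minus strand: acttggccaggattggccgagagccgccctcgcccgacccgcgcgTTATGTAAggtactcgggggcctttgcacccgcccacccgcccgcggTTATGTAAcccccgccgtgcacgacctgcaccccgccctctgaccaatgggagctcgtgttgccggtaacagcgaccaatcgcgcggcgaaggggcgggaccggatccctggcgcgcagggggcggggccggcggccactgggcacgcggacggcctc
Ciart, chr3:95882229-95882478, minus strand: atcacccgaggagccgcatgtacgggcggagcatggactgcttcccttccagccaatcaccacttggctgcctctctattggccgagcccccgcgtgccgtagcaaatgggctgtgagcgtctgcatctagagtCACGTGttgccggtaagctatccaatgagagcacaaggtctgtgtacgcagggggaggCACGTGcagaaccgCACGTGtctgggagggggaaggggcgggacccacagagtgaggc
Arntl, chr7:113207528-113207557, plus strand: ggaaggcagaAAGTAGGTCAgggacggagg

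Nr1d1 varied more among the livers than any other clock gene that could be tested. Its level was 68.9, 40.2, 123, 166 and 339 CPM in HET 1 to HET 5, against 367 and 236 CPM in WT 1 and WT 2. HET 5 and the WT livers were high, HET 1 and HET 2 were low, and the genotypes overlapped, since HET 5 lay between the WT livers. From the lowest to the highest liver the range was 9.14-fold. The exact 95% counting interval of HET 2 (26.9 to 57.7 CPM, 29 counts) lay below those of every other liver except HET 1 (48.5 to 94.9 CPM, 37 counts), and that of WT 1 was 278 to 476 CPM (57 counts). Such intervals cover counting error only. The SD of log2(CPM + 1) over the 7 livers was 1.12 for Nr1d1, against a median of 0.58 over the 4803 genes tested, and 89.8% of those genes had a smaller SD. The gene lies on chromosome 11, positions 98767932 to 98775333 of mm10 on the minus strand, and its 3′ end shares 1075 bases with Thra, a thyroid hormone receptor gene on the other strand. The labels do not say whether the counting used strand, so reads of the shared stretch could have been split or swapped. Thra itself had 3.78 to 24.3 CPM in HET, and 19.3 and 37.9 CPM in WT, below Nr1d1 in all 7 livers.

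Dbp, the albumin D-box binding protein and the best-known rhythmic activator of liver output genes, was ordered differently. It had 337, 349, 386, 223 and 247 CPM in HET 1 to HET 5, against 116 and 540 CPM in WT 1 and WT 2. The WT livers were thus the lowest and the highest of all 7, with every HET liver between them. The range was 4.66-fold, on 18 counts in WT 1 (interval 68.7 to 183 CPM) and 185 counts in WT 2 (465 to 624 CPM). Dbp (chromosome 7, 45705088 to 45710203, plus strand) shares 737 bases with Sphk2 on the other strand, which had 14 to 94 counts per HET liver and 18 and 20 in WT.

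Tef, the thyrotroph embryonic factor and a relative of Dbp, had 279, 268, 318, 166 and 157 CPM in HET 1 to HET 5, against 161 and 406 CPM in WT 1 and WT 2. HET 4, HET 5 and WT 1 were the 3 lowest livers for Tef and for Dbp, and WT 2 was the highest for both. Across the 7 livers, Pearson's r of Tef with Dbp on log2(CPM + 1) was 0.88 (exact permutation p = 0.00337, 0.0506 adjusted). Spearman's rho was 0.89 (exact permutation p = 0.0123, 0.0923 adjusted). Adjustment was over the 15 pairs of the 6 clock genes with a mean of at least 10 CPM. Without WT 1 and WT 2, the livers farthest from the median of Dbp, r was 0.98 over the 5 HET livers. The pair missed the threshold of 0.05 after adjustment in the full set, and had adjusted p = 0.0104 without HET 5 and 0.0312 without WT 1 (exact permutation tests). Leaving out any other single liver gave adjusted p = 0.125 to 0.302 (same test), farther from the threshold than the full set. There r was 0.838 to 0.885, against 0.881 in the full set, and fewer livers leave fewer pairings for the exact test. Both values of a liver come from the same library.

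**Figure D1:**
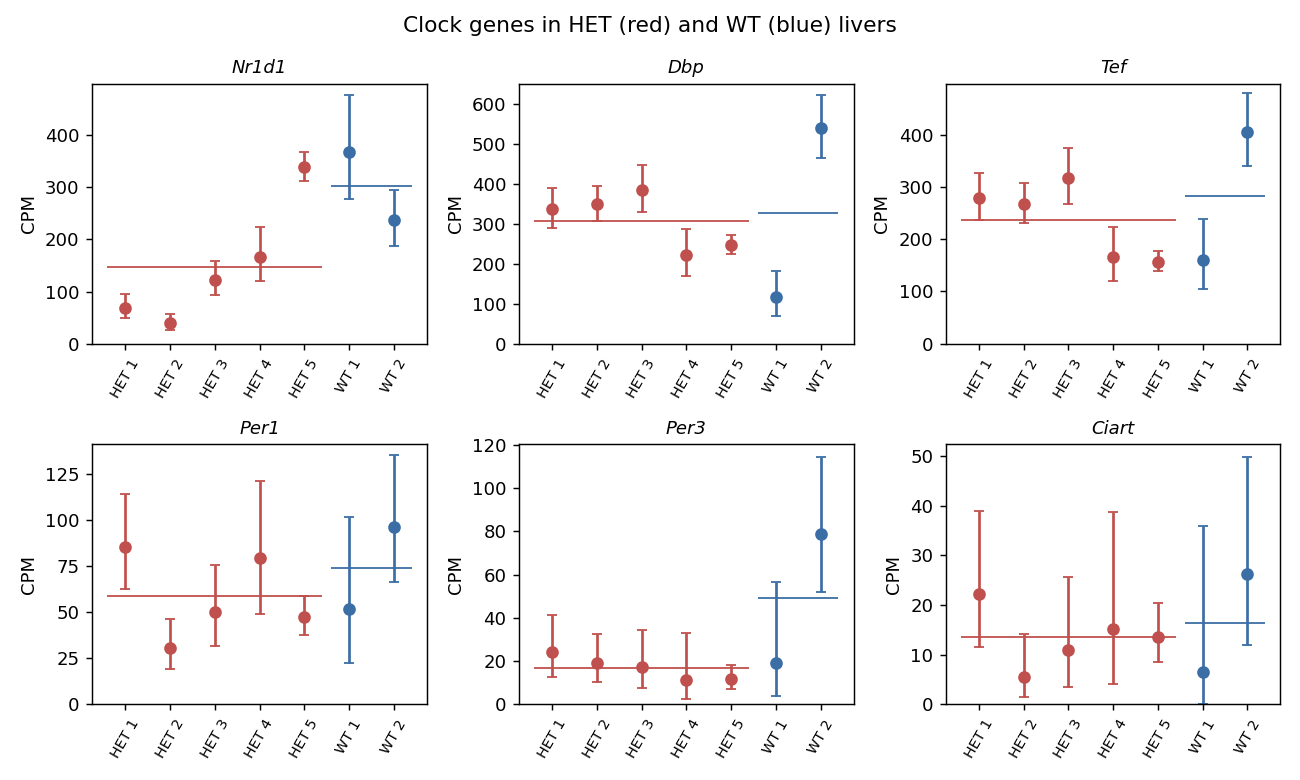
Level of 6 clock genes (vertical axes, CPM) in each liver library (horizontal axes; 5 HET in red, 2 WT in blue), with exact 95% counting intervals as bars and the group mean as a line. HET 4, HET 5 and WT 1 were the 3 lowest livers for Dbp and Tef, and HET 5 and WT 1 the 2 highest for Nr1d1.

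Because Nr1d1 peaks ahead of Dbp, their counts were set against each other within each library, where scaling cancels. This measure was chosen after the data were seen. Nr1d1 made up 17.0% of the summed Nr1d1 and Dbp counts in HET 1 (exact 95% interval 12.2 to 22.6), 10.3% in HET 2 (7.02 to 14.5), 24.1% in HET 3 (18.8 to 30.2), 42.7% in HET 4 (33.0 to 52.8) and 57.8% in HET 5 (54.7 to 60.9). In WT 1 it was 76.0% (64.7 to 85.1) and in WT 2 30.5% (25.0 to 36.4). The livers of both genotypes were therefore spread along the scale. HET 5 and WT 1 had more Nr1d1 than Dbp counts, and the other 5 had fewer. The mean share was 30.4% ± 19.5 over the 5 HET livers and 53.2% ± 32.2 over the 2 WT livers (SD), so the genotypes differed by less than the spread of the WT livers. The mean log2 ratio of Nr1d1 to Dbp was −1.40 ± 1.42 in HET and 0.22 ± 2.00 in WT (SD), a difference of −1.62 that moved to −0.21 without WT 1 and to −3.03 without WT 2. Across the livers, r of Nr1d1 with Dbp was −0.52 and with Tef −0.51 (exact permutation p = 0.236 and 0.244, 0.523 adjusted for both), and rho was −0.46 and −0.50 (p = 0.302 and 0.267, 0.648 adjusted for both). Without HET 1 and HET 2, the livers farthest from the Nr1d1 median, r was −0.62 and −0.57. None of these passed the threshold. Whether the livers were collected at different hours was not tested, since no hour was recorded, and with 2 WT livers a difference of hour and a difference of genotype cannot be told apart.

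**Figure D2:**
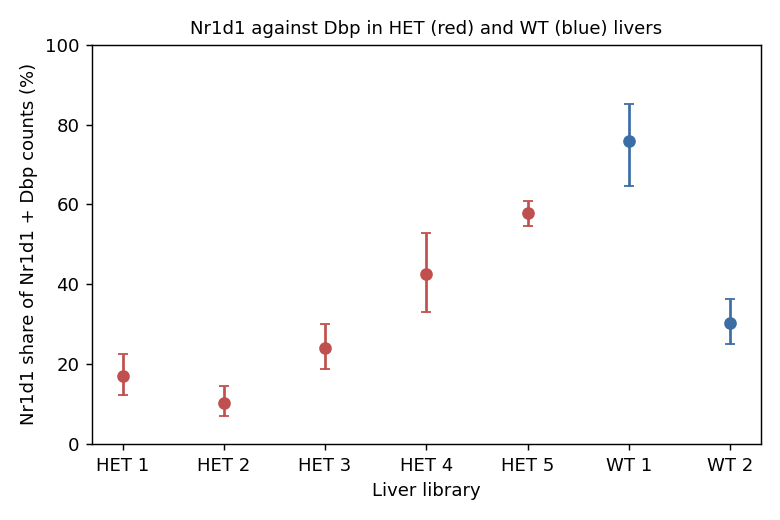
Share of Nr1d1 in the summed counts of Nr1d1 and Dbp (vertical axis, percent) in each liver library (horizontal axis; HET in red, WT in blue), with exact 95% intervals as bars. The HET livers lie between 10.3% and 57.8%, and the WT livers at 76.0% and 30.5%.

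The Period genes encode the repressors of the loop. Per1 had 85.6, 30.5, 50.4, 79.3 and 47.4 CPM in HET 1 to HET 5, against 51.5 and 96.3 CPM in WT 1 and WT 2. HET 2 had the lowest value, as it did for Nr1d1, and WT 2 the highest, with the groups overlapping. The counting interval of HET 2 (19.1 to 46.2 CPM) overlapped that of HET 3 (32.0 to 75.7 CPM). That of WT 2 (66.3 to 135 CPM) overlapped that of HET 1 (62.7 to 114 CPM). Per3 had 24.2, 19.4, 17.5, 11.3 and 11.9 CPM in HET 1 to HET 5, against 19.3 and 78.8 CPM in WT 1 and WT 2. WT 2 (counting interval 51.9 to 115 CPM) stood above all HET livers. WT 1 lay within the HET range, with an interval of 3.99 to 56.5 CPM. Per3, which lies wholly within the span of Camta1 on the same strand of chromosome 4, rested on 3 to 27 counts per liver, and Camta1 on 1 to 8. Per2 had 0 to 12 counts per HET liver (0 in HET 2 and HET 4), and 0 and 2 in WT 1 and WT 2.

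Ciart, the repressor also known as Chrono, had 22.3, 5.54, 11.0, 15.1 and 13.6 CPM in HET 1 to HET 5, against 6.44 and 26.3 CPM in WT 1 and WT 2. As for Per1, the highest value was in WT 2, on 9 counts (interval 12.0 to 49.9 CPM), which overlapped HET 1 (11.5 to 39.0 CPM). Which liver was lowest cannot be told, since HET 2 had 4 counts (interval 1.51 to 14.2 CPM) and WT 1 had 1 (0.163 to 35.9 CPM). Over the 7 livers r of Ciart with Per1 was 0.88 (exact permutation p = 0.00913, 0.0685 adjusted over 15 pairs) and rho was 0.89 (p = 0.0123, 0.0923 adjusted), and r was 0.72 without HET 2 and WT 2. The pair had adjusted p = 0.0104 without HET 5 and 0.0312 without WT 1, but 0.132 to 0.302 without any other single liver (exact permutation tests). In the latter runs r was 0.808 to 0.891. Ciart rested on 58 counts in all. Cry1, a cryptochrome repressor, had 0 to 7 counts per HET liver, and 0 and 1 in WT.

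Arntl, which marks the phase opposite to Dbp and Nr1d1, was near the limit of detection in every liver. It had 0, 0, 1, 0 and 5 counts in HET 1 to HET 5, against 1 and 0 in WT 1 and WT 2. A count of 0 allows up to 5.58 CPM in HET 1, 4.16 in HET 2, 11.3 in HET 4 and 8.76 in WT 2 (3 counts of the library). Dbp counts were at least 60.3-fold higher than Arntl in HET 1, 84.0-fold in HET 2, 19.7-fold in HET 4 and 61.7-fold in WT 2, taking 3 counts per library for Arntl. The ratio was 176 in HET 3 (exact 95% interval 31.2 to 6991), 83.4 in HET 5 (35.5 to 258) and 18.0 in WT 1 (2.84 to 750). In all 7 livers, then, Dbp was above Arntl in counts of transcript 3′ ends, which do not scale with transcript length. Npas2, a partner of ARNTL that peaks with it, had 0 counts in every liver, which allows 0.721 CPM over all 7, and Clock had 1 count, in HET 5. Nr1d2 had 0, 0, 1, 1 and 2 counts in HET 1 to HET 5 and 0 in both WT livers.

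A low count in these tables need not be a low transcript level. Fgb, which encodes a chain of fibrinogen, had 3.78 to 8.77 CPM in HET, and 12.9 and 5.84 in WT, where Fga, a chain of the same protein, had 1027 to 2924 in HET, and 1894 and 1170 in WT. Nampt, an enzyme of NAD synthesis that the liver uses, had 2 counts over all 7 livers. How well the 3′ ends of Arntl, Npas2, Clock and Nr1d2 were captured was not tested, so that the distance between Dbp and Arntl is not a measure of phase by itself.

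Set against Arntl within the library, with 0.5 counts added to each gene, Dbp had a mean log2 ratio of 7.50 ± 1.18 in HET and 6.08 ± 3.47 in WT (SD over 5 HET and 2 WT livers, as for the next 4). That of Nr1d1 was 6.10 ± 0.57 in HET and 6.30 ± 1.48 in WT. Among the Period genes, Per1 had 5.06 ± 1.13 in HET and 4.28 ± 2.52 in WT. The spread was as wide for the others, with 1.12 ± 1.30 in HET and 0.37 ± 2.76 in WT for Per2, and 3.36 ± 1.36 in HET and 3.50 ± 3.22 in WT for Per3. Each difference between genotypes was smaller than the SD of the WT livers, and each was turned round by leaving out WT 1 or WT 2. In the 4 livers with 0 counts of Arntl the added 0.5 counts stand in for it. The correlations of Arntl with Dbp, Nr1d1, Per1, Per2 and Per3 over the 7 livers had r = −0.63, 0.66, −0.40, 0.0068 and −0.35, with adjusted p = 0.345, 0.345, 0.577, 1.00 and 0.577 over the 5 relations (exact permutation tests; unadjusted 0.138, 0.114, 0.395, 1.00 and 0.462). Spearman's rho was −0.47, 0.71, −0.45, −0.020 and −0.45 (exact permutation p = 0.286, 0.0952, 0.314, 1.00 and 0.314; adjusted 0.393, and 1.00 for Per2). Without HET 5 and WT 1, r was 0.29, 0.18, −0.20, 0.44 and −0.18. The relation with Dbp changed sign, those with Nr1d1, Per1 and Per3 moved nearer 0, and that with Per2 moved away from 0. HET 5 and WT 1 hold 6 of the 7 Arntl counts.

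No clock gene passed the test between HET and WT livers. The 6 that passed the filter on low counts were Per1, Per3, Nr1d1, Dbp, Tef and Ciart, and edgeR's quasi-likelihood test called 0 of them at an adjusted p under 0.05, as it called 0 of all 4803 genes (0%). Among all genes 496 had an unadjusted p under 0.05 (10.3%), and Per3 was the 1 clock gene among them. DESeq2 gave an adjusted p to 1265 of the 4803 genes and called 10, none of them a clock gene, but of the 6 it gave one only to Nr1d1, Dbp and Tef, so Per1, Per3 and Ciart could not be called. Of the 6, Per3 had the log2 fold change of HET over WT farthest from 0, −1.54 ± 0.55 (SE; edgeR, adjusted p = 0.369). For Nr1d1 it was −0.94 ± 0.67 (adjusted p = 0.673), so that its wide range between livers left no difference between genotypes that passed. The repressors Per1 and Ciart were at −0.33 ± 0.45 and −0.38 ± 0.79 (adjusted p = 0.845 and 0.902). The activators Tef and Dbp were at −0.17 ± 0.39 and −0.01 ± 0.44 (adjusted p = 0.910 and 0.996). All 6 values were below 0, with a median of −0.36, against a median of 0.03 over all genes tested. They share the same 2 WT livers, and WT 2 had the highest value for 5 of the 6. For Tef, Per1, Per3 and Ciart its counting interval overlapped that of another liver. Without WT 2 the values were −0.11 ± 0.99 for Per3, 0.22 ± 0.69 for Per1, 0.66 ± 0.54 for Tef, 1.51 ± 0.53 for Dbp and 1.09 ± 1.55 for Ciart (edgeR, SE), so that all but Per3 changed sign. That of Nr1d1 was −0.54 ± 0.88 without WT 1, −1.26 ± 0.90 without WT 2 and −1.54 ± 0.45 without HET 5 (edgeR, adjusted p = 0.882, 0.799 and 0.161). Fitted with no filter, the 4 sparse genes Per2, Cry1, Arntl and Nr1d2 had log2 fold changes of 0.50 ± 1.40, 1.43 ± 1.65, −0.49 ± 1.96 and 2.72 ± 2.78 (edgeR, SE; adjusted p = 0.769 to 0.905), which depend on the fit's prior at counts this low.

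**Figure D3:**
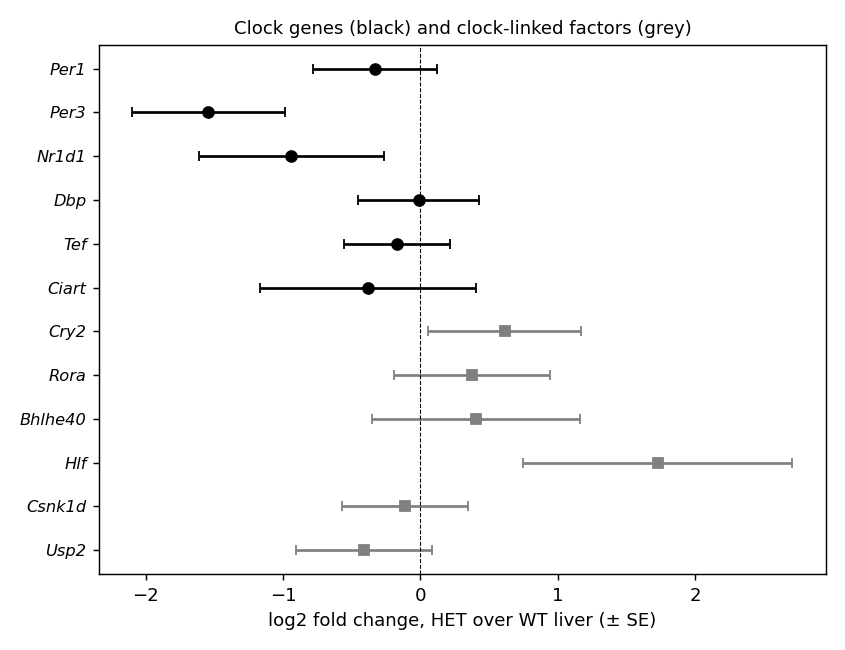
Log2 fold change of HET over WT livers (horizontal axis, edgeR, bars ± SE) for the 6 clock genes tested (black circles) and 6 clock-linked factors (grey squares). None of the 12 passed the adjusted threshold, with values from −1.54 (Per3) to 1.73 (Hlf).

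Other factors of the loop were also counted at different levels from liver to liver, with no call between genotypes. Of 15 further factors described here, 6 passed the filter, 4 with a log2 fold change above 0 and 2 below, and 0 passed the test (adjusted p = 0.569 to 0.955, edgeR; 0% of all genes). Above 0 were 2505 of all 4803 genes tested. Hlf, the remaining PAR bZIP activator, had 7.56 to 29.8 CPM in HET, and 0 and 8.76 in WT (log2 fold change 1.73 ± 0.98, adjusted p = 0.569). Cry2, a cryptochrome, averaged 38.4 ± 15.3 CPM in HET livers, against 25.7 ± 9.03 CPM in WT livers (SD). Rora, a receptor that activates Arntl through the element the REV-ERBs occupy, averaged 25.8 ± 8.20 CPM in HET livers, against 21.3 ± 2.84 CPM in WT livers (SD). Bhlhe40, a repressor that also binds E-boxes, reached 104 CPM in HET 5 and had 8.77 to 35.4 CPM in the other 4 HET livers, against 19.3 and 43.8 CPM in WT. Csnk1d, a kinase of the PER proteins, averaged 49.1 ± 18.6 CPM in HET livers, against 54.4 ± 22.2 CPM in WT livers (SD). Usp2, a deubiquitinase with a strong rhythm in liver, had 244, 182, 189, 90.7 and 65.2 CPM in HET 1 to HET 5, against 122 and 309 CPM in WT 1 and WT 2. HET 4, HET 5 and WT 1 were again the 3 lowest livers and WT 2 the highest, as for Dbp and Tef.

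Output genes of the liver clock gave the same absence of calls. Of 19 such genes, 13 passed the filter, 11 with a log2 fold change above 0 and 2 below (median 0.48), and 0 passed the test (adjusted p = 0.294 to 0.996, edgeR; 0% of all genes). Of all 4803 genes tested, 2505 were above 0 (median 0.03). The 13 values rest on the same 2 WT livers. Cyp7a1, the rate-limiting enzyme of bile acid synthesis, had 18.0 to 87.5 CPM in HET, and 0 and 8.76 CPM in WT (log2 fold change 2.92 ± 0.94, adjusted p = 0.294). Its groups did not overlap, nor did those of 18% of all genes tested. Dhcr7, of cholesterol synthesis, had a log2 fold change of 0.69 ± 0.39 (adjusted p = 0.563) and Tspan4, a tetraspanin, 0.70 ± 0.44 (adjusted p = 0.611). Por, the reductase that feeds electrons to cytochrome P450 enzymes, had 2394, 1702, 1920, 1239 and 566 CPM in HET 1 to HET 5, against 838 and 1564 CPM in WT 1 and WT 2. HET 4, HET 5 and WT 1 were the 3 lowest livers here too. Upp2, a uridine phosphorylase, had 365, 237, 254, 159 and 96.1 CPM in HET 1 to HET 5, against 110 and 225 CPM in WT 1 and WT 2, with the same 3 livers lowest. Elovl3, a fatty acid elongase, had 192, 147, 195, 809 and 574 CPM in HET 1 to HET 5, against 599 and 123 CPM in WT 1 and WT 2. It was high in those 3 livers and low in the other 4. Usp2, Por, Upp2 and Elovl3 were singled out after their values were seen. The order of livers differed for other outputs: Alas1, the first enzyme of heme synthesis, had 1005, 207, 252, 544 and 684 CPM in HET 1 to HET 5, against 380 and 417 CPM in WT 1 and WT 2.

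**Figure D4:**
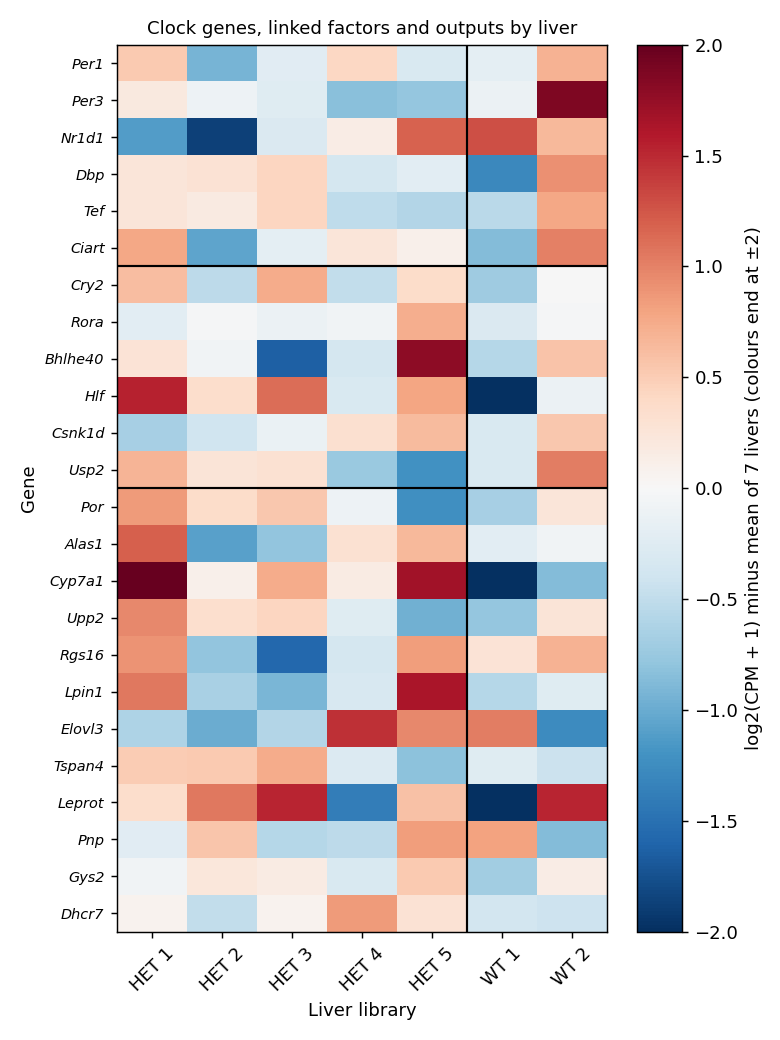
Level of 24 genes in each liver as log2(CPM + 1) minus the mean of the 7 livers (colour, red above and blue below the mean, ending at ±2), with liver libraries on the horizontal axis (HET left of the line, WT right) and genes on the vertical axis: 6 clock genes, 6 clock-linked factors and 12 further outputs, separated by lines. Dbp, Tef, Usp2, Por and Upp2 are below the mean of the livers in HET 4, HET 5 and WT 1, and Elovl3 is above it.

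The genes most like Dbp over the 7 livers, by Pearson's r of log2(CPM + 1) among 4626 other tested genes, were Poldip2, Vrk3, Ntmt1, Men1 and Ccdc152 (r = 0.99, 0.98, 0.97, 0.97 and 0.96). For Arntl, with its 7 counts, they were Nap1l1, Bag1, Mink1, Dhx9 and Reep6 (r = 0.95, 0.94, 0.94, 0.94 and 0.91). Upp2, Usp2 and Por had r of 0.72, 0.68 and 0.65 with Dbp. From the highest r down they ranked 338, 420 and 473 of the 4626 genes, so many other genes followed Dbp more closely. With Nr1d1 their r was −0.81, −0.52 and −0.79 (ranks 4546, 3969 and 4513). Elovl3 had r of −0.83 with Dbp (rank 4556) and 0.55 with Nr1d1 (rank 556). With 7 points and this many genes such values describe these libraries and carry no test.

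In the pancreas tables, which were made apart from the liver table, the clock genes were sparse. Dbp had 141 counts in HET 11 and 21 in HET 16, the deepest pancreas libraries, and 0 in the other 9. Nr1d1 had 10 and 6 counts in those libraries and 0 elsewhere. Per2, Cry1 and Ciart had 0 counts in all 11. Per3 had counts in 9 of the 11, at 101 to 717 CPM, above the 11.3 to 78.8 CPM of the livers, which are set on another table's scale. Arntl had 44 counts in HET 15, 36 in WT 16 and 0 in the other 9, and neither library held a count of Dbp or Nr1d1. With this many libraries at 0 no phase ratio could be set between genotypes in pancreas.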

How the data were processed

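Per the labels' protocols, TRI reagent was used for mouse liver and pancreas RNA, and libraries followed a MARS-seq procedure adapted to bulk samples, which counts transcript 3′ ends. The authors used cutadapt, STAR and build mm10, per the submitters' processing notes. For versions, annotation, use of strand and barcode collapsing, the labels state nothing. The authors deposited 1 table of whole-number counts for each tissue, named as corrected without saying for what. Totals differ between libraries, so no scaling is visible.

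CPM is counts per 1000000 of the library. The 5 HET and 2 WT livers were fitted with edgeR 4.0.16 in R 4.3.3 by genotype alone (filterByExpr, TMM, robust quasi-likelihood F test, Benjamini-Hochberg over 4803 genes, threshold 0.05; common dispersion 0.125, 5 residual degrees of freedom). The fit was tested on simulated data. Correlations used TMM-scaled log2(CPM + 1) and exact permutation over all 5040 pairings. Alternatives were DESeq2 1.42.0, other scalings, filters and pseudocounts, a block on replicate number and leaving out each liver. Positions are from GENCODE M21 (mm10). The members, gene lists and rules were chosen with earlier results of these data known. Named genes are all members, the tested clock factors, up to 3 genes with the smallest p of each list and the 5 genes most like Arntl and Dbp. Others were chosen after their values were seen and are said to be so or serve as checks. Results for 2 genes of these lists (1 clock factor and 1 feeding gene) are not reported here; they stayed in the fit over all genes, but list counts, the choice of named genes and figures leave them out.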

Additional observations from a re-analysis of the deposited data

How the results depend on the processing

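The count of genes called between HET and WT livers was 0 with DESeq2 size factors, with scaling by total counts and without the robust fit, and changed under other settings: DESeq2 called 10, a fit with no filter 57, a filter at a mean of 10 CPM 6, and the replicate block 3. Leaving out single livers gave 0 to 6, with 1 without HET 1, 6 without HET 5 and 4 without WT 1. No clock gene was called under any of these settings, which gave an adjusted p to 4 to 10 of them (DESeq2 to 3, and none to Per1, Per3 and Ciart), the lowest adjusted p being 0.083 (Nr1d1 with the replicate block, log2 fold change −2.37 ± 0.33). The replicate numbers are not said to pair the livers, and same-numbered livers deviated from their group means with r = −0.023 and −0.022. The 2 WT livers deviate from their mean in exactly opposite ways, so these values are not separate checks and cannot settle the pairing. HET 3, HET 4 and HET 5 have no WT liver of their number. Genotype values with the block therefore rest on HET 1, HET 2, WT 1 and WT 2 alone. The log2 fold change of Dbp, −0.01, turned positive with DESeq2 (0.0027), no filter (0.12), a mean of 10 CPM (0.034) and the replicate block (0.40), and that of Tef turned to 0.13 with the block. Leaving out single livers gave −0.62 to 1.51 for Dbp, −0.58 to 0.66 for Tef, −0.58 to 0.22 for Per1, −0.82 to 1.09 for Ciart, −2.04 to −0.11 for Per3 and −1.54 to −0.54 for Nr1d1. Where 1 WT liver remained, its spread was taken to be that of the HET livers. The differences in log2 ratio to Arntl ranged from −1.03 to 3.88 for Dbp, −1.24 to 0.84 for Nr1d1, −1.01 to 2.56 for Per1, −1.21 to 2.70 for Per2 and −2.42 to 2.14 for Per3, the ends being the values without WT 1 and without WT 2. The correlation of Arntl with Per2 turned to −0.013 with total counts, −6.0e-05 with DESeq2 size factors and −0.075 with a pseudocount of 5 CPM, and ran from −0.18 to 0.53 without single livers. That of Per3 with Nr1d1 was 0.015 with total counts, and −0.60 to 0.14 without single livers. The other correlations that changed sign without a liver were Per1 with Per3 (−0.053 to 0.67), with Nr1d1 (−0.60 to 0.45), with Dbp (−0.040 to 0.54) and with Tef (−0.045 to 0.54), Per3 with Ciart (−0.13 to 0.56) and Nr1d1 with Ciart (−0.57 to 0.46). The cause was not tested. Low counts limit Arntl, Nr1d2, Cry1 and Per2, with 4 to 21 counts over the 7 livers, and WT 1, whose 18 counts of Dbp are the fewest. The parts of depth, 3′ end capture and transcript level in these counts were not tested.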

Other observations

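Genes that respond to feeding, stress and inflammation can act on the liver clock, and their lists were read in the same fit. Of 8 tested fasting genes 6 had a log2 fold change of HET over WT above 0, of 9 tested feeding and lipogenesis genes 5, of 9 tested glucocorticoid targets 4, of 7 tested immediate early genes 7 and of 13 tested acute-phase genes 13, against 2505 of all 4803 genes tested. Single livers carried part of these counts. The summed immediate early genes had 1325 CPM in HET 5 and 202 to 367 CPM in the other 4 HET livers, against 464 and 315 CPM in WT 1 and WT 2, and without HET 5 the count was 1 of 5 tested. The summed acute-phase genes had 44201 and 72340 CPM in HET 2 and HET 3, but 20324, 21817 and 15994 CPM in HET 1, HET 4 and HET 5, against 22880 and 26438 CPM in WT 1 and WT 2, so 3 of the 5 HET livers lay below both WT livers. Without HET 3 that count was 10 of 12. The fasting count was 2 of 8 without HET 5, and 4 of 8 without HET 1 or without WT 2. The glucocorticoid count was 2 of 10 without WT 1 and 7 of 10 without WT 2. No gene of these lists passed the edgeR test (0 of all genes did). Of the genes reported here, the one with the smallest p in each list was Angptl4 among fasting genes (441 ± 82.7 CPM in HET and 295 ± 7.56 in WT; adjusted p = 0.458), Fasn, the fatty acid synthase, among feeding genes (370 ± 180 in HET and 521 ± 1.67 in WT; 0.734), Zbtb16 among glucocorticoid targets (31.5 ± 14.5 in HET and 78.1 ± 1.05 in WT; 0.399), Ier2 among immediate early genes (92.5 ± 45.7 in HET and 77.5 ± 27.1 in WT; 0.804) and Orm1 among acute-phase genes (2671 ± 1673 in HET and 1085 ± 251 in WT; 0.472), with SD over 5 HET and 2 WT livers. HET 5, high in Nr1d1, had the most Egr1, an immediate early gene (240 CPM, against 2.19 to 30.2 in the other 4 HET livers, and 6.44 and 20.4 in WT). WT 1, also high in Nr1d1, had 1 count of Egr1, while its immediate early sum of 464 CPM was the highest after HET 5. A relation of these genes to Nr1d1 was not tested.

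Of the RNA quality list all 6 tested members had a log2 fold change below 0, against 2298 of all 4803 genes tested. Malat1 was at −2.34 ± 0.40 (adjusted p = 0.0750) and Neat1 at −1.69 ± 0.52 (0.285, edgeR), both nuclear RNAs. Their summed level with the other 6 of the list was 935 to 3019 CPM in HET, and 3570 and 5318 CPM in WT. WT 2, with the highest values for Dbp, Tef, Per1, Per3 and Ciart, was also the highest for this sum, and the part of this sum in those values was not tested. Kupffer cell markers summed to 323 to 724 CPM in HET, and 683 and 724 CPM in WT, and cholangiocyte markers to 114 CPM in HET 5, 11.0 to 31.9 CPM in the other 4 HET livers, and 6.44 and 23.4 CPM in WT.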
